A study of Mus musculus with 2 samples.

Results

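The EGR transcription factors Egr1, Egr2, Egr3 and Egr4 and their corepressors Nab1 and Nab2 were measured in RNA of cultured mouse ureters. The family was chosen by the mutant over control ratios of Egr4 and Egr1, both above 0, so the values of these 6 genes are a description and no test of that difference is given. They were found by the gene name of each spot, which gave 7 probes in 28 of the 177043 gene spots of an array, out of 39429 probes.

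Mutant ureters (Fgfr1/2cDKO) carried Tbx18(cre/+) together with Fgfr1(fl/fl) and also Fgfr2(fl/fl), and Cre from the Tbx18 locus removes the floxed FGF receptor alleles in ureteric mesenchyme and its descendants. Control ureters were Fgfr1(fl/?) and Fgfr2(fl/?), so floxed receptor alleles were present in both groups, with no Cre allele listed for the controls. Loss of the receptors and presence of Cre at the Tbx18 locus cannot be told apart. All embryos were NMRI, taken at stage E15.5, and the ureters were grown on transwell membranes for 6 days before total RNA was extracted. On each of 2 arrays a mutant RNA was set against a control RNA in the other dye: array 1 was labelled male with the mutant RNA in Cy5, and array 2 female with the mutant RNA in Cy3. Replicate, sex label and dye cannot be told apart. The labels give neither the number of embryos in an RNA sample nor whether replicates came from separate litters, so the spread behind a p-value may be technical and covers these samples alone.

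EGR factors are zinc finger proteins of the immediate early class: growth factor signals, those of FGF receptors among them, act through ERK on the serum response factor SRF and its ternary complex partners, and EGR genes are transcribed before new protein is made. The factors bind GC-rich sites in the promoters of growth, matrix and signalling genes. NAB1 and NAB2 bind EGR1, EGR2 and EGR3 and repress their activity, and NAB2 is itself induced by EGR factors, which makes a feedback loop.

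The promoters of Egr4, the member with the largest ratio, and of Nab1, the only tested member with a ratio below 0, are shown because they differ in the EGR sites they hold. They are the 250 bases before the transcription start in RefSeq promoters of GRCm38.p6, matched for 4 of the 6 genes; Egr1 and Egr3 are not shown. Both lie on the minus strand, Egr4 at chr6:85513590-85513839 and Nab1 at chr1:52500449-52500698, and are written in the direction of transcription. Capitals mark TGACG, part of the cAMP response element, in Egr4, where it reads CGTCA because it lies on the opposite strand. In Nab1 they mark the EGR site GCGNGGGCG on either strand.
Egr4 promoter: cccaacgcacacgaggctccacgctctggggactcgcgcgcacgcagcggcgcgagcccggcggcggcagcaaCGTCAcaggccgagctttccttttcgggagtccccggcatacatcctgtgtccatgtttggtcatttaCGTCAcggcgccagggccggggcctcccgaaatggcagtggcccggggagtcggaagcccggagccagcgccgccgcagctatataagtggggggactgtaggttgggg
Nab1 promoter: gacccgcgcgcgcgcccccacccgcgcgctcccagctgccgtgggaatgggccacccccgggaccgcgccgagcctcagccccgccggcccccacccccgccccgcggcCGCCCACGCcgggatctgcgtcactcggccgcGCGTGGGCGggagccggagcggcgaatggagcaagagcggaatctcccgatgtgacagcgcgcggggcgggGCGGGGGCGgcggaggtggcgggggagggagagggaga

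The Egr4 window held 2 TGACG matches, 105 to 109 and 173 to 177 bases before the start, and no match to the EGR site or to the CArG box that SRF binds. TGACG was found in 17.8% of 32851 such windows. The Nab1 window held 1 TGACG match as well, 119 to 123 bases before the start, left unmarked above. The Nab1 window held 3 matches to the EGR site, which 4.7% of windows contain. Each of the 3 overlapped a GC box (GGGCGG, in 32.7% of windows), so the motifs are not separate there. The Egr4 window was 68% G and C and the Nab1 window 80.8%, against a median of 52.4% over all windows. The Egr2 gene has a CArG box, CCATATATGG, at chr10:67537797-67537806 in the windows of 3 of its starts, and another, CCTTTTTTGG, at chr10:67537494-67537503 in the window of a further start, a motif found in 1.47% of windows. The 3 Egr2 windows with CCATATATGG also held 2 TGACG matches each. The Nab2 window held neither a CArG box nor an EGR site. Both strands were searched. A match is a stretch of letters, not a shown site of binding.

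Egr4 was far higher in the mutant RNA on both arrays. Its probe, on chromosome 6 at 85461153 to 85461212 (mm9, minus strand), gave a normalised signal of 874 and 947 in the 2 mutant RNAs, against 200.4 and 238 in the 2 control RNAs. The mutant and control values did not overlap, and the 2 arrays gave close to the same difference. No share of tested genes without overlap is given, so non-overlap is a description here and below. Array 1 gave a log2 ratio of 2.12 and array 2 one of 1.99, with a mean of 2.06 ± 0.09 (SD, n = 2), a 4.16-fold difference. Among 22070 genes tested, 2 had a higher mean ratio. EGR4 is a factor known from neurons and male germ cells and belongs to the same immediate early class as EGR1.

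The 4 spots of the Egr4 probe on an array also lay close together. They ran between 2.07 and 2.16 on array 1 and between 1.85 and 2.09 on array 2. The difference was visible before any dye correction: the signal above local background was 687 and 653 in the mutant RNAs, against 202 and 228 in the control RNAs, although the mutant RNA carried the red dye on one array and the green dye on the other. In the authors' deposited table Egr4 had a signed fold of 6.28 and 5.37. Egr4 was the only member at or above 2-fold higher on both arrays, as were 4 of the 22070 genes (0.0181%). The contrast chose this gene, so nothing is read from that share.

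Egr1, the founding member of the family and an early responder to serum and growth factors, was also higher in the mutant RNA. Its probe (chromosome 18, 35024395 to 35024454, mm9) gave 18797 and 18776 in the mutant RNAs, against 8797.5 and 12287 in the control RNAs. After normalisation the mutant values were nearly equal, the control values differed, and the groups did not overlap. The signals above background, given below, did overlap, so which RNA carried the spread is not settled. Array 1 had a log2 ratio of 1.10 and array 2 one of 0.61, with a mean of 0.85 ± 0.34 (SD, n = 2), a 1.81-fold difference. Spots of the same array differed little, between 1.07 and 1.13 on array 1 and between 0.60 and 0.62 on array 2. The gap of 0.48 between the arrays was therefore far wider than the spread between spots, and 6.5% of tested genes had a wider one. The direction of Egr1 on array 2 came with the dye normalisation: the signal above background there was 13315 in the mutant RNA (Cy3) and 18241 in the control RNA (Cy5), while on array 1 it was 15516 in the mutant RNA and 10042 in the control RNA. The authors' deposited table gave a signed fold of 2.20 and 1.47.

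Egr2, the factor that drives myelination in Schwann cells, was higher by less, and its 2 arrays differed in size. Its probe (chromosome 10, 67004798 to 67004857, mm9) gave 4116.7 and 4066.1 in the mutant RNAs, against 2705.8 and 3611.7 in the control RNAs. As for Egr1, the normalised mutant values were alike, the control value of array 2 was the higher of the 2 controls, and the groups did not overlap. The signals above background of the 2 groups overlapped here too. On array 1 the log2 ratio was 0.61 and on array 2 it was 0.17, a mean of 0.39 ± 0.31 (SD, n = 2) or 1.31-fold. With each array centred on its median in place of loess, the array 2 value of Egr2 was -0.05. The signal above background on array 2 was 3011.8 in the mutant RNA and 4973.2 in the control RNA, so there too the direction came with the dye normalisation. The ratio used 6 of 8 spots, since the scanner software marked 1 spot on each array as an outlier.

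**Figure D1:**
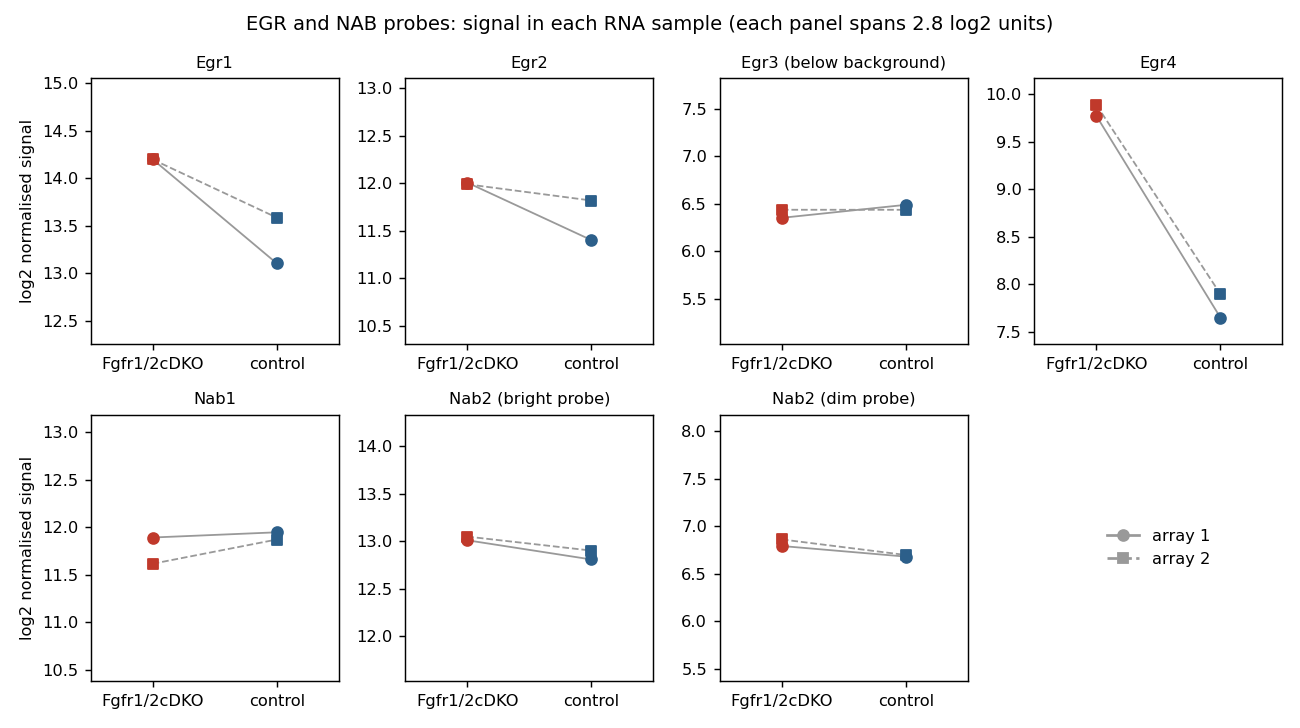
Log2 normalised signal (vertical axis) of each of the 7 probes in the 2 Fgfr1/2cDKO RNAs (red, left) and the 2 control RNAs (blue, right), with lines joining the RNAs of 1 array. Egr4 is far higher in the mutant RNA on both arrays, the mutant points of Egr1 and Egr2 coincide while their control points differ, and the points of Egr3 and of the dim Nab2 probe lie near background. Levels were scaled between arrays and are comparable within a panel, not between panels.

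Egr3, a factor of muscle spindles and lymphocytes, was not well above background in any spot of either genotype. Its probe lies on chromosome 14 at 70479222 to 70479281 (mm9). No ratio is given for it, and the authors' deposited table listed it at 1 on both arrays. Nothing can be said of Egr3 at this sensitivity.

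The corepressor Nab1 was slightly lower in the mutant RNA. Its probe (chromosome 1, 52515132 to 52515191, mm9, minus strand) gave 3803.1 and 3140.2 in the mutant RNAs, against 3950.3 and 3747.2 in the control RNAs. The values of the groups overlapped. On array 1 the log2 ratio was -0.05 and on array 2 it was -0.25, a mean of -0.15 ± 0.14 (SD, n = 2), and all 8 spots lay below 0.

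Nab2 had 2 probes, both with small ratios. The brighter one (chromosome 10, 127098009 to 127098068, mm9, minus strand) gave 8248.5 and 8474 in the mutant RNAs, against 7170.5 and 7650.6 in the control RNAs, and the groups did not overlap. Before dye normalisation the signal above background was lower in the mutant RNA on both arrays, at 6718.4 and 6272.6, against 8275.8 and 11002 in the control RNAs, so the direction of Nab2 came with the normalisation. The arrays gave log2 ratios of 0.20 (array 1) and 0.15 (array 2), with a mean of 0.17 ± 0.04 (SD, n = 2), but the mean was -0.04 when each array was centred on its median. That setting moved the median of all tested genes to -0.14, and relative to it Nab2 stood at 0.10. The dimmer probe (127101413 to 127101472 on the same chromosome), for another transcript of the gene, had log2 ratios of 0.11 and 0.16. It was well above background in 1 of 4 spots in the mutant RNA on array 1, and 6 of its 8 spots lay above 0.

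**Figure D2:**
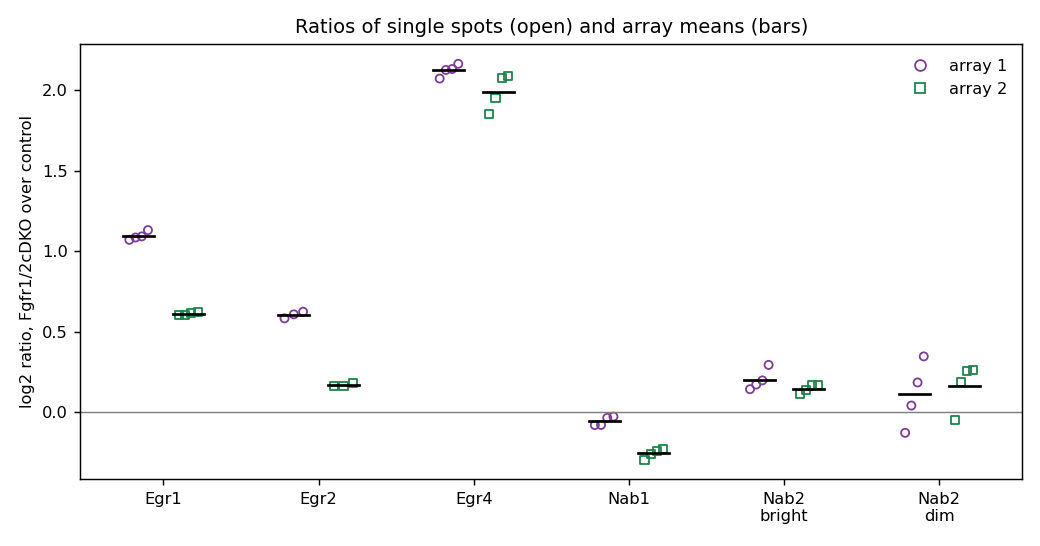
Log2 ratio of Fgfr1/2cDKO over control (vertical axis) in each spot of the 6 tested probes, array 1 in purple circles and array 2 in green squares, with spots in order of value and a bar at the mean of each array. Spots of an array cluster tightly for Egr1, Egr2 and Nab1 while the arrays stand apart, and all 8 Egr4 spots lie between 1.85 and 2.16.

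Set side by side, the members covered a wide range of ratios. Of the 5 members tested, 4 lay above 0 on both arrays, as did 30.5% of all tested genes. Since the contrast chose the members, this is a description. In order of ratio they ran Egr4, Egr1, Egr2, Nab2 and Nab1, at ranks 3, 35, 930, 4161 and 16908 from the highest of 22070. The array values of Egr4 did not overlap those of Egr1. Egr1's lower value, 0.6118, and Egr2's higher value, 0.6055, lay closer together than the arrays of either gene. The array values of Egr2 and Nab2 overlapped.

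**Figure D3:**
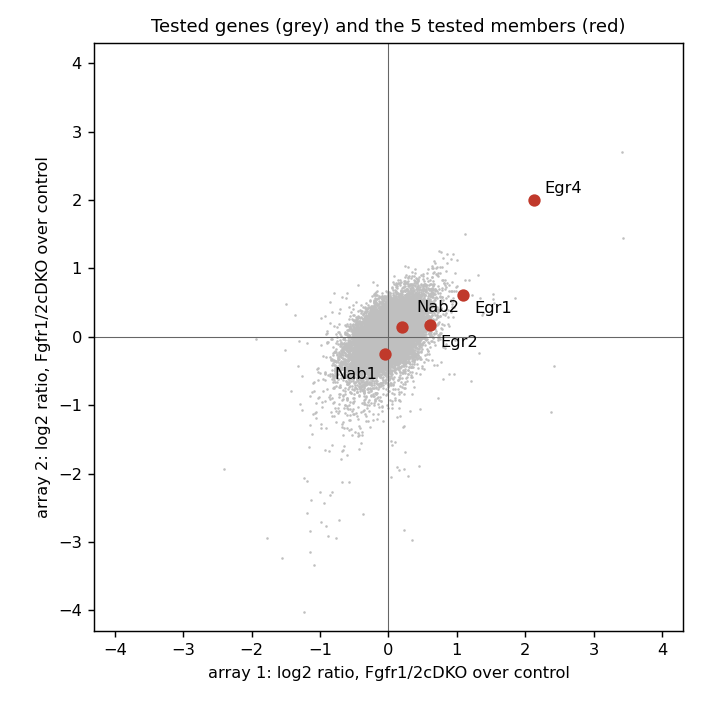
Log2 ratio of Fgfr1/2cDKO over control on array 1 (horizontal axis) and array 2 (vertical axis) for the 22070 tested genes (grey) and the 5 tested members (red). Egr4 stands far out at 2.12 and 1.99, Egr1 and Egr2 lie below the diagonal, and Nab1 and Nab2 lie within the mass of genes.

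The genes whose pair of ratios came nearest to Egr4 and Egr1 were found by the root mean square difference over the 2 arrays. They were sought among tested genes named in RefSeq, with the members left out. Counts within a distance of 0.1 covered all tested genes. No gene came within 0.1 of Egr4. The nearest were the ephrin receptor Epha8 at a distance of 0.79 (log2 ratios 1.11 and 1.51), the thyroid hormone binding protein Crym at 0.97 (1.30 and 0.90) and the mesothelial protein Msln at 1.00 (0.94 and 1.21). Egr1 had 3 genes within that distance: the phosphatase Ptpn13 at 0.03 (1.09 and 0.57), the potassium channel Kcnj10 at 0.09 (1.22 and 0.60) and the glutathione transferase Gstm1 at 0.09 (0.99 and 0.67). With 2 arrays, such likeness rests on 2 points per gene.

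Over the whole array, 836 of 22070 genes changed at an adjusted p below 0.05 (3.79%), 389 higher (1.76%) and 447 lower (2.03%) in the mutant RNA, by limma with Benjamini-Hochberg adjustment over all tested genes. The count was 170 in the authors' deposited table, 10 with the scanner software's processed signals, 3 from separate channels and 0 with median centring, where limma gave 5584 genes an unadjusted p below 0.05. In the 4 channels, 70.3% to 78.3% of gene spots passed the well-above-background flag, and the number of arrays limits the precision. Across genes, which are no replicates of each other, array 1 and array 2 had r = 0.52. Of the targeted genes, the brightest Fgfr1 probe gave -0.33 ± 0.15 (SD, n = 2; limma adjusted p = 0.134). The brightest Fgfr2 probe gave 0.56 ± 0.02 (SD, n = 2; limma adjusted p = 0.0309). The other Fgfr1 probes had means of -0.54 and -0.37, and the other Fgfr2 probe 0.76. Since the sources used here do not name the floxed exons, a probe outside them checks nothing.

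Genes that EGR factors are known to activate passed the test at a share of 4%, near the 3.79% of all tested genes. Of 25 such targets tested, all in bulk RNA in which fewer cells of a type and less RNA per cell cannot be told apart, 1 was higher and 0 lower, and 24 did not pass. The median log2 ratio was -0.00, against -0.02 over all tested genes. Without Nab1 and Nab2, which are targets too, 23 remained with the same counts. The gene that passed was Timp2, an inhibitor of matrix metalloproteinases. It gave 79302 and 109860 in the mutant RNAs, against 53283 and 70359 in the control RNAs, which is 0.61 ± 0.05 on the log2 scale (SD, n = 2; limma adjusted p = 0.0248). A second Timp2 probe gave a mean of 0.03, so the probes disagree.

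Targets known from other tissues were listed apart. None of the 10 EGR2 targets of Schwann cells passed, where 3.79% of all tested genes did. Of these targets, 6 had an unadjusted p below 0.05 in limma, as had 22.5% of all tested genes. Their ratios ran from -0.43 for the myelin protein gene Pmp22 to 0.58 for the factor Pou3f1, with a median of -0.02. Of 9 EGR2 and EGR3 targets of lymphocytes, 1 was higher and 0 lower (11.1% called, against 3.79% of all tested genes). This was Rnf128, a ubiquitin ligase of T cell anergy, at 45580 and 52902 in the mutant RNAs, against 33227 and 35712 in the control RNAs, with a ratio of 0.51 ± 0.08 (SD, n = 2; limma adjusted p = 0.0419). Which cells the Rnf128 signal came from was not tested. Of 8 T cell markers listed, only 4 could be tested.

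The kinases and factors that induce EGR genes showed 0 higher and 1 lower of 19 tested (5.26% called, against 3.79% of all tested genes). The median was 0.09. The lower gene was Rps6ka3, the ERK-activated kinase RSK2, with 1300.7 and 1330.4 in the mutant RNAs, against 1951.2 and 1797.9 in the control RNAs, and a ratio of -0.51 ± 0.11 (SD, n = 2; limma adjusted p = 0.0436). Its other 3 probes had means of -0.31, -0.02 and 0.12, so the fall was not seen by all of them. Rps6ka1, picked out after its values were seen, had the highest ratio of the list, 0.56, above 0 on both arrays. It did not pass (limma adjusted p = 0.0508). The best known inducers did not pass. Srf, at an adjusted p of 0.145 in limma, had 0.31 ± 0.13 (SD, n = 2), from 7404 and 8213.3 in the mutant RNAs against 5590 and 7043.5 in the control RNAs. The ternary complex factors gave 0.25 (Elk1) and 0.19 (Elk3), while Elk4, picked out after its values were seen, had 0.79 on array 1 and -0.13 on array 2. None of the 3 passed, and the kinase ERK1 gave 0.04 (Mapk3).

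Genes that are induced together with EGR genes split in direction. Of 31 tested, 2 were higher and 3 lower, 16.1% called against 3.79% of all tested genes, with a median of 0.08. The higher ones were Arc, an immediate early gene of neurons, at 0.75 ± 0.26 (SD, n = 2; limma adjusted p = 0.0228), and Jun, a subunit of AP-1, at 0.53 ± 0.07 (limma adjusted p = 0.0378). Arc gave 521 and 394 in the mutant RNAs, against 272 and 265 in the control RNAs. Neither overlapped its control values.

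The lower ones belong to the same induced class. The small GTPase Gem fell most, to 1917.5 and 2251.2 in the mutant RNAs, against 4253.9 and 4114.7 in the control RNAs, which is -1.01 ± 0.20 on the log2 scale (SD, n = 2; limma adjusted p = 0.0116). The G protein regulator Rgs2 gave -0.66 ± 0.10 (adjusted p = 0.0228) and the nuclear receptor Nr4a2 gave -0.60 ± 0.30 (adjusted p = 0.0449), and a second probe of each of the 3 genes was also below 0. Fos, a partner of Jun in AP-1, had 0.55 on array 1 and -0.01 on array 2, Junb a mean of 0.08 and the nuclear receptor Nr4a1 a mean of 0.07; none of these 3 passed.

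The proteins through which NAB corepressors act, and the other factors of GC-rich sites, showed 0 calls of 20 tested in limma. Over all tested genes, 3.79% were called. Of the 20, 3 had an unadjusted p below 0.05 in limma (22.5% over all tested genes), and the median was 0.00. Without Nab1 and Nab2, 18 remained. The remodelling ATPase of the NuRD complex, Chd4, had a ratio of 0.35 ± 0.23 (SD, n = 2; limma adjusted p = 0.137). Wt1, a zinc finger factor with a related binding site, had 0.19.

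**Figure D4:**
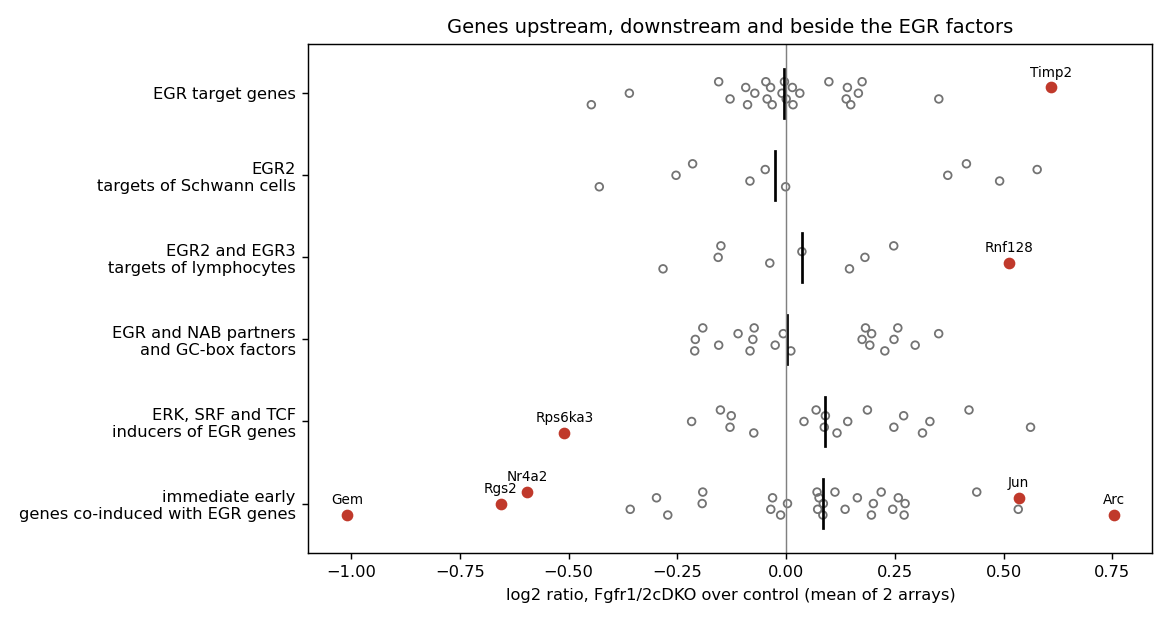
Mean log2 ratio of Fgfr1/2cDKO over control (horizontal axis) for each tested gene of 6 lists around the EGR factors; filled red points passed the test, open points did not, and black bars mark list medians. Calls lie on both sides of 0 among immediate early genes, and list medians lie between -0.02 and 0.09.

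Markers of several cell types differed beside the EGR genes, and their part in the EGR results was not tested. Over all tested genes, 1.76% were called higher and 2.03% lower. Urothelial markers were higher in 5 of 13 and lower in 0, among them Upk1a at 0.97, Grhl3 at 0.82 and Cdh1 at 0.80. Their summed signal was 513470 and 621020 in the mutant RNAs, against 390800 and 404530 in the control RNAs. Krt5, a keratin of basal cells, was at -0.46 and Epcam at -0.04, and neither passed. Kidney tubule markers were higher in 3 of 6, with sums of 3639.7 and 1708.4 in the mutant RNAs, against 1378.5 and 1262.3 in the control RNAs. Cdh16 alone gave 2210.6 and 596.9 in the mutant RNAs, against 205 and 220.04 in the control RNAs. Lhx1 (-0.38) and Aqp2 (-0.08) lay below 0 on both arrays and Pax8 (0.38) above 0, and none of them passed. Umod and Kcnj1, not well above background in the control RNAs, entered the test through the mutant RNAs alone, so their calls follow in part from the filter. Their signals were at least 1.86-fold and 1.74-fold higher in the mutant RNAs. This bound replaces a control signal by the lowest one that counts as well above background, where that is higher.

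Calls in the markers of 5 other cell types were all lower. Endothelial markers were lower in 6 of 8 (Esam -0.68, Cdh5 -0.69, Emcn -0.63), with sums of 4417.5 and 4578.6 in the mutant RNAs, against 6824.7 and 6167.3 in the control RNAs. Neuronal markers were lower in 5 of 8 (Dbh -0.97, and Stmn2), with sums of 53310 and 45765 in the mutant RNAs, against 82043 and 54366 in the control RNAs. Macrophage markers were lower in 3 of 7 (Mrc1 -0.79, Fcer1g -0.62, C1qa -0.59), with sums of 75621 and 49598 in the mutant RNAs, against 92485 and 70735 in the control RNAs. Fibroblast markers were lower in 2 of 8 (Dpt -0.96, Postn -0.57) with overlapping sums, 537930 and 491620 in the mutant RNAs, against 492810 and 523360 in the control RNAs. The collagen genes Col1a1 and Col1a2 of that list had ratios of 0.44 and 0.58, above 0 on both arrays, and did not pass. Krt5, Epcam, Lhx1, Aqp2, Pax8 and both collagen genes were picked out after their values were seen. Of 8 T cell markers, 4 were tested, and Cd2, Cd3d, Cd3g and Cd8a were not. Cd28 was lower at -0.47, while Cd4 (-0.28), Cd3e (-0.10) and Lck (-0.03) did not pass. Sums of the 4 tested were 2735.2 and 2509.8 in the mutant RNAs, against 3232 and 2860.8 in the control RNAs.

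The remaining lists gave 0 calls in limma: 8 smooth muscle markers, 7 Schwann cell markers and 7 heat shock genes. Of all tested genes 3.79% were called, and lists this short could hold 0 at that share. Among smooth muscle markers the smallest adjusted p in limma was 0.0533 (Myocd, 0.45). Among Schwann cell markers it was 0.0521 (Mbp, 0.49), and among heat shock genes 0.0848 (Dnajb1, 0.38). Heat shock genes, like immediate early genes, respond to handling, and a part of handling here was not tested. Smooth muscle sums were 594580 and 639910 in the mutant RNAs, against 613220 and 614820 in the control RNAs. Schwann cell sums were 66417 and 73141 in the mutant RNAs, against 47092 and 61321 in the control RNAs. The heat shock median was 0.11, with sums of 206160 and 211270 in the mutant RNAs, against 196580 and 201130 in the control RNAs.

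The size of the Egr4 ratio depended on the processing, and the order of the members did not. With processed signals of the scanner software the mean was 2.50, with a smaller background offset 2.28, 2.54 in the authors' deposited table, and with median centring 1.93. Egr1 stood between 0.60 and 0.85 and Egr2 between 0.19 and 0.40 in these settings.

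**Figure D5:**
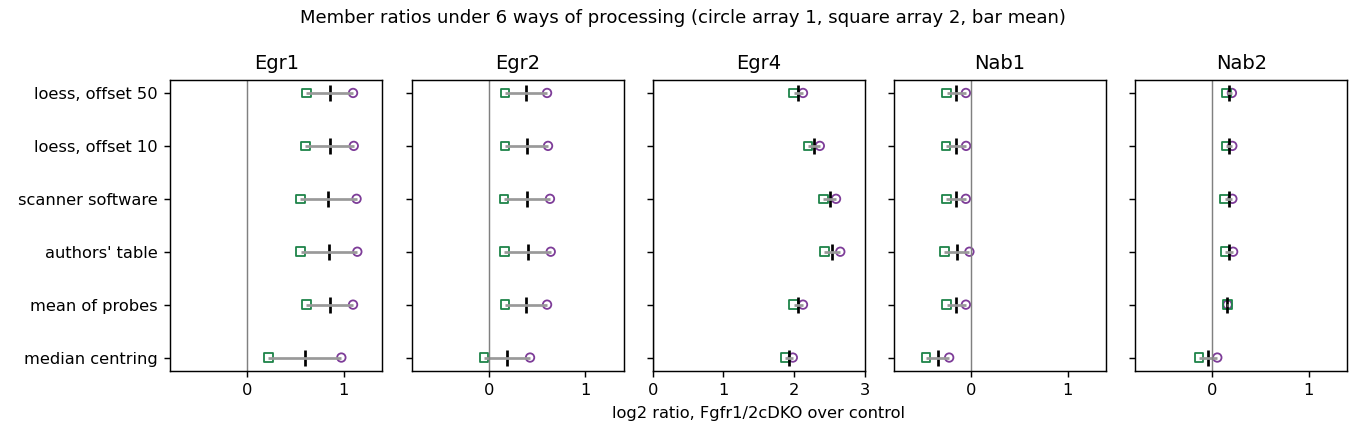
Log2 ratio of Fgfr1/2cDKO over control (horizontal axis, with a wider range for Egr4) for the 5 tested members under 6 ways of processing; circles are array 1, squares array 2 and bars their mean. Egr4 means lie between 1.93 and 2.54. Each of the 5 members has its lowest mean with median centring, where the median of all tested genes is -0.14.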

How the data were processed

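Per the file headers, the deposited intensity values are a spot's mean signal and its local background median. The submitters' processing notes name Agilent Feature Extraction, version 10.7.3.1. The same files give log10 ratios of red over green processed signals, computed by that software per the file headers. The score in the authors' deposited value table is a signed fold for each probe. Compared as log2 values with the software's ratio, it ran mutant over control on both arrays (r = 0.84 and 0.85). Why 8097 and 9100 probes stand at exactly 1, and whether it was centred, stays unknown.

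Normexp (offset 50) corrected the background, which shrinks ratios of dim probes, and ratios were loess-normalised within arrays with limma 3.58.1 in R 4.3.3. Loess gave weight 0 to control and outlier spots. For the signals of single RNAs, average intensities were then made alike between arrays (Aquantile in limma), which leaves the ratios unchanged. The spots weighted in the loess and the naming of genes were first set otherwise and then changed to follow an earlier analysis of these data, so matching its count of calls guided both. Its count with processed signals was not matched. Spots of a probe (4 per array) were averaged. A probe was tested if more than a share of 0.5 of its spots was well above background in 1 genotype or both, each time on both arrays; 28915 probes and 22070 genes were tested, each with its brightest probe. Of the probes, 28328 were named by accession, 3400 by symbol and 7701 by the file's own name. Log2 ratios of the deposited signals were tested against 0 with lmFit and eBayes, two-sided, threshold 0.05, with 1 residual and 7.45 prior degrees of freedom. Tested on simulated data, the fit recovered large changes, but in most runs the prior degrees of freedom were overestimated and the share of false calls exceeded the threshold.

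Members and gene lists were chosen with earlier results of these data known, so their counts are no independent support. Named were all members, called genes of each pathway list (at most 6) and marker list (at most 3), 10 fixed genes around the EGR factors, and the 3 genes nearest to Egr4 and to Egr1; some genes that this rule names are not reported here. The lists were EGR targets, EGR2 targets of Schwann cells, EGR2 and EGR3 targets of lymphocytes, inducers, immediate early genes, partners, and markers of 9 cell types and heat shock. Motifs were searched in RefSeq promoters of GRCm38.p6, whose coordinates differ from the mm9 coordinates of the probes.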

Additional observations from a re-analysis of the deposited data

Results flagged for a closer look

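Some values had opposite signs on array 1 and array 2, which also differ in sex label and dye; the difference was not tested. Fos had a log2 ratio of 0.554 on array 1 and -0.0068 on array 2, and Wt1 had 0.389 and -0.0037. Elk4 had 0.793 and -0.132, and Epcam had 5e-04 and -0.0894. Junb had -0.0443 and 0.196, and Mapk3 had -0.001 and 0.0835. The median of smooth muscle markers was -0.0616 on array 1 and 0.0821 on array 2. The median of the EGR and NAB partners was -0.0442 and 0.106, that of the lymphocyte targets -7e-04 and 0.0122, and that of the Schwann cell targets -0.0769 and 0.0679.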

How the results depend on the processing

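With 1 array alone, the log2 ratio ran from 0.61 to 1.10 for Egr1, from 0.17 to 0.61 for Egr2, from 1.99 to 2.12 for Egr4, from -0.25 to -0.05 for Nab1 and from 0.15 to 0.20 for Nab2. Egr4 moved to 2.50 with the software's processed signals, 2.28 with an offset of 10, 2.54 in the authors' table and 1.93 with median centring. Median centring also gave -0.35 for Nab1 and reversed Nab2 to -0.0436. Relative to the median of all tested genes in that setting, -0.14, Nab1 stood at -0.21 and Nab2 at 0.10. Egr3 was not tested and has no value in any setting.

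The count of called genes, 836, was far less stable than the member ratios. It was 1281 with an offset of 10, 1907 at an adjusted p below 0.1, 170 in the authors' table, 10 with processed signals, 3 from separate channels with no replicate block, and 0 with median centring, where 5584 genes had an unadjusted p below 0.05 in limma. Processed signals were averaged over spots in more than 1 way: log2 ratios averaged gave the 10 calls, and signals averaged before the ratio, chosen after seeing the data, gave 243 with Egr4 at 2.50. With filler spots weighted in the loess, the weighting tried first and entered as an alternative after seeing the data, 706 genes were called. The prior degrees of freedom, estimated from 1 residual degree of freedom, ran from 3.96 to 10.9 over these alternatives, so every adjusted p here rests on a poorly determined value.

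The calls of the pathway lists fell to 0 for EGR targets, lymphocyte targets and inducers with processed signals (either way of averaging), median centring, the authors' table and separate channels. Immediate early genes had 5 calls, 2 (Arc and Gem) in the authors' table, 2 with processed signals averaged before the ratio, and 0 with processed log2 ratios, median centring and separate channels. With an offset of 10, Schwann cell targets and inducers had 2 calls each. With the mean over a gene's probes, the called EGR target was F3, lower at -0.49, in place of Timp2, and the called inducer was Rps6ka1, higher at 0.56, in place of Rps6ka3.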
